A study of Mus musculus with 5 samples.

Results

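Il2rb and Ifngr1 are 2 cytokine receptor genes out of 2926 mouse genes measured in T cells sorted from the brain after stroke. They were taken by symbol from the deposited table, which places Il2rb on chromosome 15 and Ifngr1 on chromosome 10. Neither was removed by a filter. The trained group held 3 samples (66, 124 and 168 cells) from wildtype C57BL/6 mice that had running wheels from day 2 after stroke by photothrombosis, in which a light-sensitive dye clots vessels of the cortex. The untrained group held 2 samples (144 and 190 cells) from wildtype C57BL/6 mice with the same stroke and no wheels. All 692 cells came from the lesioned hemisphere at day 14 and were sorted on CD45 and CD3 into 384-well plates for SORT-seq, in which each well carries its own barcode. The labels do not say how many mice a sample holds or whether samples of 1 group came from separate mice, so the spread between samples may be partly technical. The pair was chosen by symbol with the training difference of Il2rb in all sorted cells already known, so the training values of Il2rb are described without a test.

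Il2rb encodes the beta chain shared by the receptors for interleukin 2 and interleukin 15. It signals beside the common gamma chain, encoded by Il2rg, through the kinases JAK1 and JAK3 and the transcription factor STAT5, and in mice it is known as a surface marker of memory CD8 T cells, natural killer (NK) cells and regulatory T cells. Ifngr1 encodes the ligand-binding chain of the interferon gamma receptor, which signals through JAK1 and JAK2 to genes such as Irf1, the guanylate-binding proteins and the class I antigen presentation genes. It is widely expressed, myeloid cells included. Il2ra, Ifngr2, Jak3, Stat5a and Stat5b were not analysed here.

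Each value was a score with no unit, relative to the other cells, in which 0 marks neither absence nor a molecule, and scores of different genes are not levels that can be compared. Il2rb scores of single cells had a 10th percentile, median and 90th percentile of -0.508, -0.189 and 1.14 in trained sample 1, -0.468, -0.0693 and 1.09 in trained sample 2, and -0.468, -0.0691 and 1.03 in trained sample 3. They were -0.491, -0.0691 and 0.808 in untrained sample 1 and -0.512, -0.386 and 1.48 in untrained sample 2. In every sample most cells lay in a low mass and a minority reached far above it. Untrained sample 2 had a different form: no cell had an Il2rb score between -0.177 and 0.308, 38 cells lay above that gap and 10 of them sat at the highest value that the sample's scores reach, 2.52. For Ifngr1 the gap ran from -0.0782 to 0.0653, with 69 cells above it and 6 at 2.52. Gaps were not measured in the other 4 samples, and 0 rows had 2.52 as their highest value there. Because the form differed, shares of cells above 0 are given within samples and not ranked between them.

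The labelled cell type was checked on T cell markers, of which 8 of 11 listed were measured. Cells were split by their coreceptor scores, a gate on a score being a range and not a detected transcript. A cell counted as CD8-gated if its Cd8a and Cd8b1 scores averaged above 0 while Cd4 did not exceed 0. CD4-gated cells met the opposite condition. The gates held 159 CD8-gated and 146 CD4-gated cells, with 57 cells above both gates and 330 above neither. The median score of Cd3e, a chain of the CD3 complex, was 0.199 in CD8-gated cells, 0.0899 in CD4-gated cells, 0.309 in cells above both gates and -0.390 in cells above neither. The last group therefore carried a sorting label of T cells with low scores of a defining T cell gene. A macrophage or monocyte marker mean above 1, from 7 of 15 listed markers, was seen in 3, 3 and 2 cells of trained samples 1, 2 and 3, in 0 cells of untrained sample 1 and in 41 cells of untrained sample 2. None of the listed B cell, microglia, neutrophil, dendritic cell or astrocyte markers was analysed here. Of 331 well names 221 occurred in 2 or more samples and 0 pairs of cells had identical scores.

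Averaged over 5 samples, Il2rb was highest in CD8-gated cells and lowest in cells above neither gate. In untrained sample 2 its CD8-gated mean was below those of CD4-gated cells and cells above both gates. Its mean score in CD8-gated cells was 0.395, 0.414 and 0.395 in trained samples 1 to 3, against 0.173 and 0.105 in untrained samples 1 and 2. In CD4-gated cells it was 0.274, 0.0607 and 0.0166 in trained samples and 0.0723 and 0.138 in untrained samples. The trained CD8-gated values lay close together and above the others, while the CD4-gated values of the groups overlapped. Cells above both gates, only 2 in trained sample 2 and 6 in untrained sample 2, had 0.105, 0.360 and 0.251 in trained and 0.126 and 0.177 in untrained samples. Cells above neither gate had -0.146, 0.0529 and -0.0548 in trained and -0.0750 and -0.0910 in untrained samples. Over 5 samples the means fell in the order CD8-gated (0.297 ± 0.146), above both (0.204 ± 0.104), CD4-gated (0.112 ± 0.100) and above neither (-0.0628 ± 0.0731; SD, n = 5 each). The upper 3 classes did not stand apart from their neighbours beyond the spread: CD8-gated minus above both was 0.0927 ± 0.134, and CD4-gated minus above both was -0.0916 ± 0.184 (SD of 5 differences within a sample). CD4-gated minus above neither was 0.175 ± 0.160, above 0 in 5 of 5 samples, but it was -0.166 among cells with a positive T cell marker mean.

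CD8-gated cells had a higher Il2rb score than CD4-gated cells in 4 of 5 samples, but the difference did not pass the test. It was 0.122, 0.353 and 0.379 in trained samples 1 to 3, and 0.100 and -0.0326 in untrained samples 1 and 2. The mean difference was 0.184 ± 0.0692 (SE; limma with sample as a block, adjusted p = 0.280 over 2923 genes). In that fit 0.171% of genes passed the adjusted threshold of 0.05, the median over all genes was -0.0270 and the Il2rb difference stood at percentile 98.4. Being higher in at least 4 of 5 samples held for 17.5% of all genes. Ifngr1 had a difference of 0.109 ± 0.0735 (adjusted p = 0.557), higher in 3 of 5 samples.

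**Figure D1:**
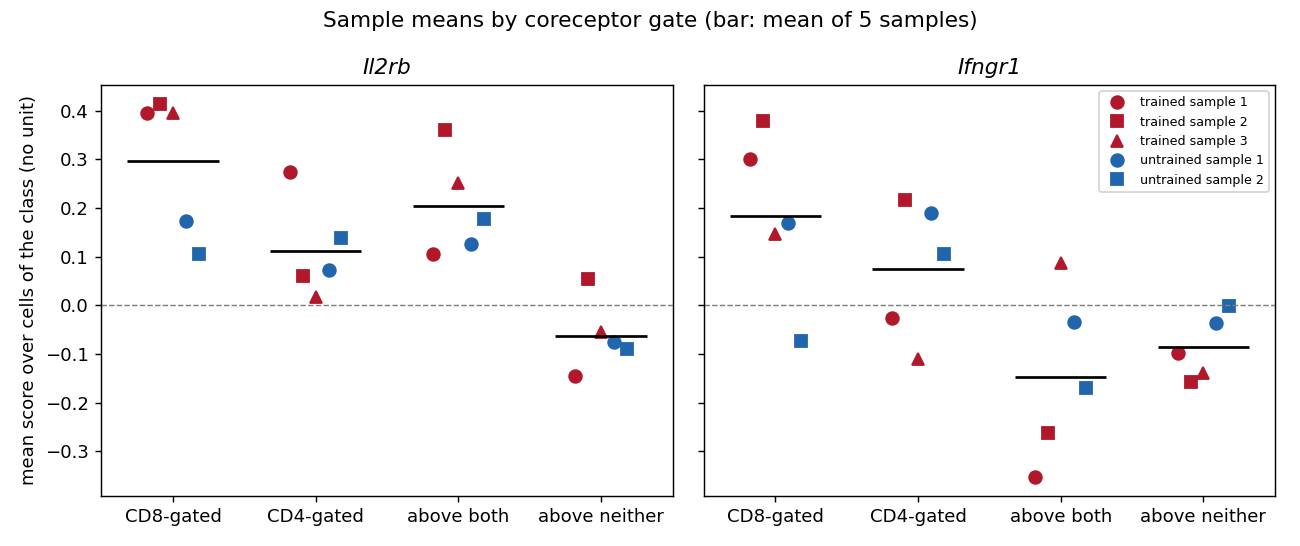
Mean score of Il2rb (left) and Ifngr1 (right) over the cells of each gate class, 1 point per sample, trained in red and untrained in blue; black bars are means of 5 samples. The 3 trained Il2rb points in CD8-gated cells lie at 0.395 to 0.414, above the untrained points at 0.105 and 0.173.

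Against cells above neither gate, Il2rb rose in CD8-gated cells and in cells above both gates. The difference was 0.359 ± 0.0738 (SE) in CD8-gated cells, above 0 in 5 of 5 samples (limma adjusted p = 0.00559), as it was for 39.1% of all genes. In that contrast 6.77% of genes passed and the median over all genes was 0.0994. In cells above both gates it was 0.267 ± 0.0738 (adjusted p = 0.00834), where 41.2% of genes passed and the median was 0.171. In CD4-gated cells it was 0.175 ± 0.0738 (adjusted p = 0.103), where 13.5% of genes passed and the median was 0.136. Ifngr1 passed in none of the 3 contrasts: it differed by 0.270 ± 0.0941 in CD8-gated cells (adjusted p = 0.0936), by 0.161 ± 0.0941 in CD4-gated cells (adjusted p = 0.217) and by -0.0607 ± 0.0941 in cells above both gates (adjusted p = 0.613). The positive medians show that gated cells scored higher over most genes. With each cell's mean score subtracted, Il2rb still passed in CD8-gated cells, at 0.252 (adjusted p = 0.0263), and not in cells above both gates, at 0.0867 (adjusted p = 0.371). The T cell markers moved with these contrasts. Their mean score was 0.0848 to 0.284 in CD8-gated cells of the 5 samples and -0.194 to -0.0967 in cells above neither gate. Among cells with a positive T cell marker mean, an alternative added after the data were seen, the CD8-gated difference of Il2rb was 0.0897 (adjusted p = 0.999). There the difference of cells above both gates was -0.131. With gates at 0.25 neither call held: it was 0.299 in CD8-gated cells (adjusted p = 0.0769) and 0.0591 in cells above both gates (adjusted p = 0.711). The CD8-gated difference no longer passed when trained sample 3 was left out, at 0.337 (adjusted p = 0.0632). The Ifngr1 difference of CD8-gated cells passed when untrained sample 2 was left out, at 0.356 (adjusted p = 0.0261).

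Ifngr1 followed a less even pattern over the gates. In CD8-gated cells its mean score was 0.300, 0.377 and 0.147 in trained samples 1 to 3, against 0.168 and -0.0746 in untrained samples 1 and 2. In CD4-gated cells it was -0.0261, 0.217 and -0.112 in trained samples, against 0.188 and 0.105 in untrained samples. Trained and untrained samples overlapped in both gates. Cells above both gates had -0.353, -0.262 and 0.0858 in trained and -0.0340 and -0.171 in untrained samples, and cells above neither gate had -0.0988, -0.157 and -0.138 in trained and -0.0356 and -0.000709 in untrained samples. The order of the means over 5 samples was CD8-gated (0.184 ± 0.173), CD4-gated (0.0745 ± 0.140), above neither (-0.0861 ± 0.0667) and above both (-0.147 ± 0.176; SD, n = 5 each). No pair of neighbours in this order passed a test.

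Between the gates 5 genes passed the test, 4 that rose in CD8-gated cells (0.137% of genes) and 1 that fell (0.0342%), and 4 of them belong to the effector and memory genes. The effector and memory list was chosen with earlier results of these data known, so its counts are a description. Of 16 measured effector and memory genes 14 were higher in CD8-gated cells and 4 rose, with a median difference of 0.251. These were Ccl5, a chemokine (0.659 ± 0.104, adjusted p = 0.0131), Nkg7, a cytotoxic granule protein (0.523 ± 0.0713, adjusted p = 0.00653), Ly6c2, a surface protein of memory CD8 T cells (0.409 ± 0.0667, adjusted p = 0.0133), and Ctsw, a cathepsin of cytotoxic cells (0.394 ± 0.0627, adjusted p = 0.0131). The fifth gene past the threshold, named after its value was seen, was Ctsb, a lysosomal cathepsin, which fell by 0.397 ± 0.0739 (adjusted p = 0.0430). All 7 measured regulatory T cell genes were lower in CD8-gated cells (median -0.183, against -0.0270 over all genes) and 0 passed. Maf, a transcription factor, differed by -0.373, the costimulatory receptor gene Icos by -0.275, the coreceptor gene Nrp1 by -0.269 and Tnfrsf18, which encodes the receptor GITR, by -0.183, with adjusted p from 0.0936 to 0.280. Of 7 measured macrophage or monocyte markers 6 were lower in CD8-gated cells, with a median of -0.215, against -0.0270 over all genes. Without the cells high in myeloid markers 0 genes passed. No gene passed without trained sample 1 either, and 2 passed without trained sample 2 or without trained sample 3.

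No measured partner of the receptors passed the test between the gates. Of 15 measured genes of the interleukin 2 and 15 pathway 5 were higher and 10 lower in CD8-gated cells, with 0 past the threshold. Their median was -0.0683, against -0.0270 over all genes. The common gamma chain gene Il2rg averaged 0.125 in CD8-gated cells and 0.167 in CD4-gated cells (difference -0.0422 ± 0.0622, adjusted p = 0.819). Jak1, the kinase that serves both receptors, averaged 0.150 in the CD8 gate and 0.220 in the CD4 gate (-0.0701 ± 0.0747, adjusted p = 0.725). Stat3, a transcription factor of several cytokine receptors, differed by -0.214 (adjusted p = 0.332). Of the downstream genes, the survival gene Bcl2 differed by 0.278, its relative Mcl1 by -0.156, the feedback inhibitor Socs3 by -0.156 and the kinase gene Pim1 by -0.144 (adjusted p 0.184 to 0.450).

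Of 23 measured interferon gamma pathway genes 4 were higher and 19 lower in CD8-gated cells, with 0 past the threshold. Their median was -0.0801, against -0.0270 over all genes. Jak2 differed by -0.187 ± 0.0791 (adjusted p = 0.327). The class I genes H2-D1 and H2-K1 differed by -0.327 and -0.239 (limma adjusted p = 0.131 and 0.264). Both were lower in 5 of 5 samples, as were 9.37% of all genes. How reads were assigned between these related genes was not tested. The GTPase gene Iigp1 differed by -0.157. Ifngr1 lay on the other side of 0 from its kinases and most of these targets, though none of the differences passed. Most of all genes also lay below 0 in this contrast, as their median shows. Among 14 other cytokine receptor genes 5 were higher and 9 lower, with 0 past the threshold and a median of -0.0198. Il7r, the interleukin 7 receptor chain of naive and memory T cells, differed by -0.217 (adjusted p = 0.264), Tnfrsf1b, a receptor for tumour necrosis factor, by -0.186, Crlf2, a receptor for thymic stromal lymphopoietin, by -0.157 and Il4ra, the interleukin 4 receptor chain, by -0.105. Among 13 genes of naive and recirculating T cells 7 were higher and 6 lower, with 0 past the threshold. Beside Bcl2 and Il7r these included the transcription factor gene Ets1 at -0.188 and S1pr1, the receptor for exit from lymph nodes, at -0.150.

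In all sorted cells the mean Il2rb score was 0.126, 0.159 and 0.101 in trained samples 1 to 3, against 0.0520 and -0.0158 in untrained samples 1 and 2. Every trained sample lay above every untrained sample, as it did for 11.0% of all genes. Il2rb was chosen with this difference known, so neither the order nor the SE given below is a test. Untrained sample 2 had a scale of its own: 1632 rows had a mean of 0 there and 0 rows did in the other samples. Its median gene SD was 0.728, against 0.370 to 0.515 in the others. Its mean near 0 may therefore not be a level on the scale of the trained samples. The part of this scale in the training differences was not tested. The means were 0.129 ± 0.0292 in trained samples and 0.0181 ± 0.0480 in untrained samples (SD, n = 3 and 2), a difference of 0.111 ± 0.0276 (SE). The macrophage or monocyte markers averaged -0.0966, -0.161 and -0.109 in trained and -0.0805 and 0.0130 in untrained samples. In untrained sample 2, 0 of the 41 cells high in them had an Il2rb score above 0, against 38 of its other 149 cells. Without such cells the means were 0.145, 0.168 and 0.0966 in trained samples, against 0.0520 and 0.0977 in untrained samples, and the difference was 0.0616. The groups then overlapped, with untrained sample 2, on its own scale, just above trained sample 3.

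**Figure D2:**
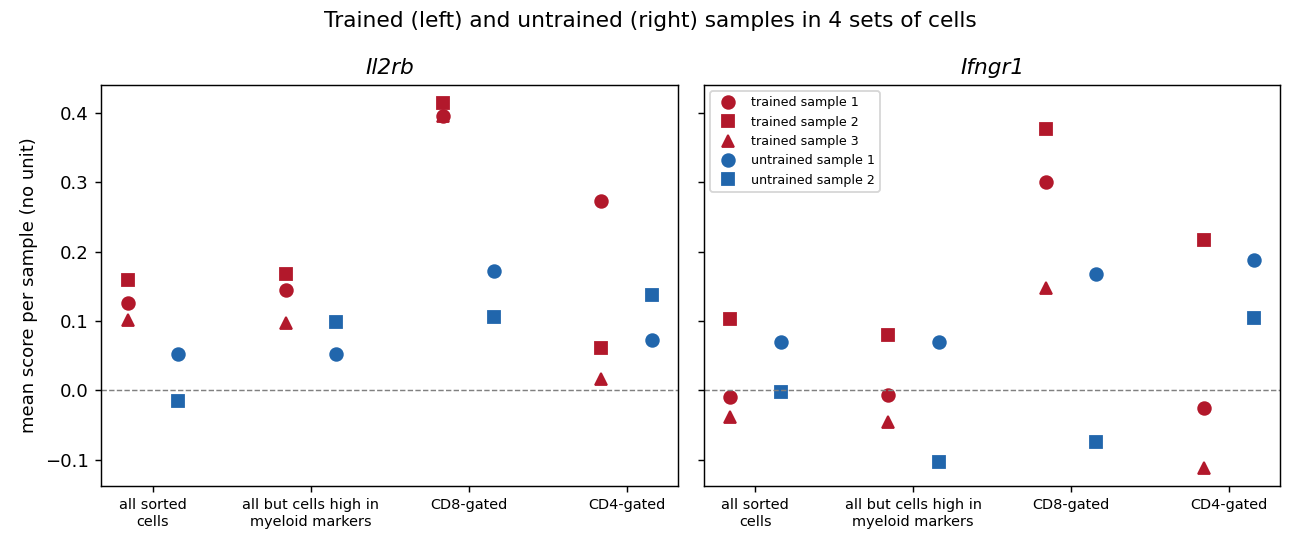
Mean score of Il2rb (left) and Ifngr1 (right) per sample in all sorted cells, in all but the cells high in myeloid markers, and in each gate; trained samples in red on the left of each pair, untrained samples in blue on the right. The Il2rb groups are apart in all sorted cells and in CD8-gated cells and overlap in the other sets.

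Within the CD8 gate the trained samples had the higher Il2rb scores, with a mean of 0.402 ± 0.0109 in trained samples and 0.139 ± 0.0477 in untrained samples (SD, n = 3 and 2), a difference of 0.263 ± 0.0752 (SE). Every trained sample lay above every untrained one, which held for 21.6% of all genes in this gate. CD8-gated cells are part of all sorted cells, so these values too are a description and not a test. Without the cells high in myeloid markers the difference was 0.247. The cell mean score moved the same way, at 0.0408, 0.0560 and 0.0182 in trained and -0.00194 and -0.0121 in untrained samples, and with it subtracted the difference was 0.217. The NK cell markers, 3 of 8 measured (Eomes, Tyrobp and Fcer1g), averaged 0.0475, -0.0971 and -0.0208 in trained and -0.0790 and -0.220 in untrained CD8-gated cells. The oligodendrocyte markers, 2 of 5 measured, averaged 0.190, 0.196 and 0.130 in trained and 0.0657 and 0.0778 in untrained CD8-gated cells. The endothelium marker, 1 of 5 measured, averaged 0.158, -0.0103 and 0.0346 in trained and -0.0737 and -0.183 in untrained CD8-gated cells. All 7 macrophage or monocyte markers, Tyrobp and Fcer1g again among them, were higher in trained CD8-gated cells, with a median difference of 0.139. Their mean score was -0.212, -0.128 and -0.0987 in trained and -0.132 and -0.429 in untrained CD8-gated cells. The median over all genes was also above 0, at 0.0457. The groups overlapped for the NK cell list and the macrophage or monocyte list and were apart for the oligodendrocyte and endothelium markers. The part of these markers in the result was not tested. With gates at 0.25 the difference was 0.141. Within the CD4 gate the Il2rb means were 0.117 ± 0.137 in trained and 0.105 ± 0.0463 in untrained samples, a difference of 0.0120 ± 0.0958 (SE), which was below 0 under 5 of the alternatives.

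Ifngr1 did not differ by training in a way that passed the test. In all sorted cells its mean was -0.00930, 0.102 and -0.0392 in trained samples and 0.0701 and -0.00296 in untrained samples, a difference of -0.0156 ± 0.0388 (SE, adjusted p = 0.928). The groups overlapped and the sign turned to 0.0254 without the cells high in myeloid markers. Those 41 cells of untrained sample 2 had a mean Ifngr1 score of 0.360, with 24 above 0, against -0.103 in the other cells of that sample, with 45 of 149 above 0. Within the CD8 gate the Ifngr1 difference was 0.228 ± 0.0868 (adjusted p = 0.521) and within the CD4 gate -0.120 ± 0.103 (adjusted p = 0.999). Without 1 sample the first ran from 0.106 (without untrained sample 2) to 0.349 (without untrained sample 1), and the second from -0.215 (without trained sample 2) to -0.0512 (without trained sample 3). In all sorted cells 0 of 2926 genes passed the adjusted threshold (0% called) and 226, or 7.72%, had an unadjusted p under 0.05; in CD8-gated cells the counts were 0 and 261 (8.92%), and in CD4-gated cells 0 and 71 (2.43%). Of the pathway genes, Jak1 differed by 0.204 ± 0.0752 in CD8-gated cells (adjusted p = 0.521), and Il2rg by -0.206 ± 0.0974 (adjusted p = 0.551).

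The gate difference of Ifngr1 was above 0 in every trained sample and below 0 in every untrained sample. It was 0.326, 0.161 and 0.258 in trained samples 1 to 3, against -0.0201 and -0.179 in untrained samples 1 and 2. This split of signs was found in 5.54% of all genes. The difference between trained and untrained samples was 0.348 ± 0.127 (SE; limma interaction of gate and training, unadjusted p = 0.0134, adjusted p = 0.758), beside a median of 0.0778 over all genes. In this fit 0 of 2923 genes passed and 173, or 5.92%, had an unadjusted p under 0.05. The kinase gene Jak1 had an interaction of 0.366 ± 0.127 (adjusted p = 0.758). With each cell's mean score subtracted the Ifngr1 interaction was 0.271. For Il2rb the trained minus untrained gap in gate difference, given without a test, was 0.251, and it was 0.174 with the cell mean subtracted and 0.0591 with gates at 0.25.

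**Figure D3:**
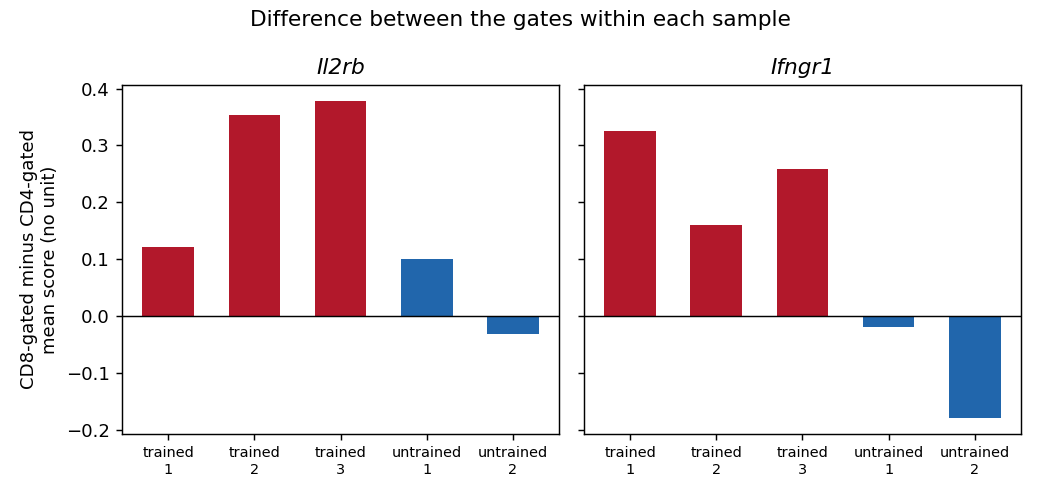
CD8-gated minus CD4-gated mean score within each sample for Il2rb (left) and Ifngr1 (right), trained samples in red and untrained samples in blue. Ifngr1 bars are at 0.161 to 0.326 in trained samples and at -0.179 and -0.0201 in untrained samples.

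The share of cells with Ifngr1 above 0 was higher among cells with Il2rb above 0 than among the rest in all 5 samples. Ifngr1 was above 0 in 39.3%, 57.1% and 46.4% of the cells with Il2rb above 0 in trained samples 1 to 3, against 23.7%, 32.4% and 27.3% of their other cells. In untrained samples 1 and 2 the shares were 59.4% and 60.5%, against 40.0% and 30.3%. Pearson's r between the genes across cells averaged 0.213 over the 5 samples. The median r of Il2rb with all 2925 other genes was 0.148, and 61.7% of them had an r above 0 in every sample. Both genes also followed the overall score of a cell: its mean over all genes correlated with Il2rb at 0.350 to 0.556 and with Ifngr1 at 0.263 to 0.488 within samples. With the cell mean score held constant (partial r, an alternative added after the data were seen) the mean r of the pair was 0.0233. Cells of 1 sample share a plate and library, so these and the following values describe cells and carry no p.

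The genes most like Il2rb across cells included, by mean r over 5 samples, Tpt1 (0.486 ± 0.0304 SD), which encodes a growth-related protein, then Rpl13, Rplp0, Tmsb10, Rpl41, Rplp1, Eef1a1, Rpl8 and Rps16 (0.450). Ccl5 came next, at rank 11 (0.447). For Ifngr1 they were Tmsb4x, an actin-binding peptide (0.439 ± 0.0779), then Rps29, mtAtp6, mtCo3, Tpt1, Rps21, mtCo2, Rpl38, Actg1 and Rpl39 (0.389). The lowest r of Il2rb included those of Gm10785 (-0.401), Kcnq1ot1, A630089N07Rik and A130077B15Rik, and the lowest of Ifngr1 those of A630089N07Rik (-0.440), Kcnq1ot1, Gm10785, F830016B08Rik and A130077B15Rik. The median r over all 2925 other genes was 0.148 for Il2rb and 0.128 for Ifngr1. The spike-in mean correlated with either gene by -0.141 to 0.126.

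With the cell mean held constant, 3 of the 5 genes most like Il2rb were effector and memory genes. The highest partial r were those of Ccl5 (0.262 ± 0.155 SD), Xcl1, a chemokine of CD8 T and NK cells (0.229 ± 0.0788), and Ly6c2 (0.228 ± 0.103). Next came Txk, a T cell kinase (0.225 ± 0.0942), and Satb1, a chromatin organiser of T cells (0.216 ± 0.0853). Each was above 0 in 5 of 5 samples, as were 6.43% of all genes. They were picked for a high mean over the same samples, so that share is no test of them. Ccl5 stood at 0.0144, 0.278 and 0.256 in trained samples 1 to 3 and at 0.435 and 0.328 in untrained samples 1 and 2, so trained sample 1 showed almost none of it. All 16 measured effector and memory genes had a mean partial r above 0, against 48.9% of all genes (median 0.0904, against -0.00186 over all genes). They ran from Ccl5 down to the adhesion receptor gene Cd44 (0.00542), and 6 of them were above 0 in 5 of 5 samples. The list was chosen with earlier results of these data known, so its counts are a description and not a test. Nkg7 had 0.183, Ctsw 0.164 and the NK receptor gene Klrd1 0.160. Of 15 interleukin 2 and 15 pathway genes 9 had a mean partial r above 0 and 2 were above 0 in 5 of 5 samples, with a median of 0.0179, close to that of all genes. Jak1 had 0.144, above 0 in 5 of 5 samples, Bcl2 0.125 and Il2rg 0.103, above 0 in 4 of 5; the lowest was the adaptor gene Grb2 (-0.120). The regulatory T cell genes had a median of -0.0234, with Nrp1 lowest at -0.141. The lowest partial r over all genes were those of Grn, Psap and Cst3, lysosomal and secreted products abundant in myeloid cells (-0.214, -0.195 and -0.192), and of the immediate early gene Egr1 (-0.196) and the mRNA decay factor gene Zfp36 (-0.188). These correlations were weak: 95% of all genes lay between -0.118 and 0.129.

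For Ifngr1, 5 of 23 interferon gamma pathway genes had a mean partial r above 0 (median -0.0445), against 50.2% of all genes (median 0.000255). B2m, the light chain of class I molecules, was highest (0.139 ± 0.0916) and above 0 in 5 of 5 samples, as were 6.15% of all genes. It is named as the highest of its list over the same samples, so that share is no test of it. Jak2 was lowest (-0.158 ± 0.118), and Gbp6 had -0.132 ± 0.0461. Among the other cytokine receptors Tgfbr2, for transforming growth factor beta, had 0.115 and the type I interferon receptor gene Ifnar1 had -0.134. Ccl5 had 0.152 and Eomes, a transcription factor of memory CD8 T cells, -0.104. Without the partial step B2m had an r of 0.384 and Jak2 of 0.00916. By that plain r 21 of the 23 interferon gamma pathway genes had a mean above 0, as did 90.1% of all genes. Their median was 0.107, against 0.128 over all genes, and 0 of them were below 0 in 5 of 5 samples. The low values of this list thus belong to the partial r, an alternative added after the data were seen. The highest partial r were those of Rps29 (0.247), Tmsb4x (0.227), Cytip, an adhesion regulator of lymphocytes (0.220), mtAtp6 (0.217) and mtCo3 (0.211), so 4 of these 5 genes were ribosomal, cytoskeletal or mitochondrial.

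**Figure D4:**
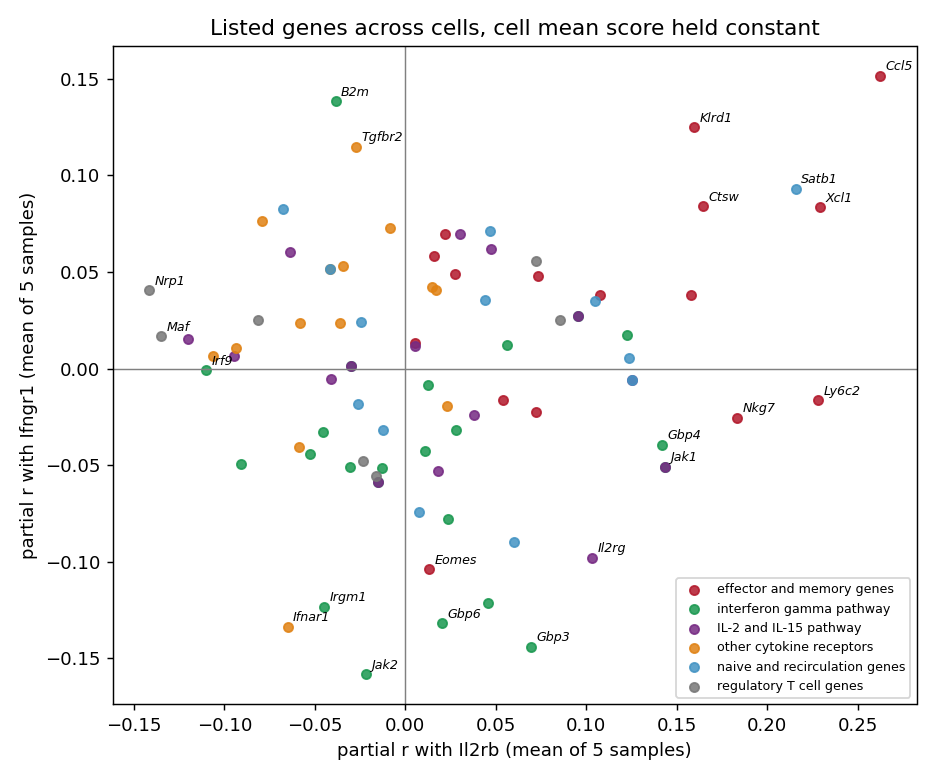
Partial r across cells with Il2rb (horizontal axis) and Ifngr1 (vertical axis), the cell mean score held constant and averaged over 5 samples, for the measured genes of 6 lists shown by colour. Effector and memory genes lie right of 0, up to Ccl5 at 0.262, and interferon gamma pathway genes lie mostly below 0 on the vertical axis, down to Jak2 at -0.158.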

How the data were processed

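The study measured single T cells by SORT-seq in 3 trained and 2 untrained samples. Per the submitters' processing notes Cell Ranger handled the reads. Its version, the genome build, the annotation and any normalisation are not given in the sources used, and no coordinates are printed. The table the authors deposited holds, by its values, a score per gene and cell: 2926 mouse genes and 41 spike-ins by 692 cells, spanning -2.12 to 3.74. Of all values 72.7% were negative and 0 were whole numbers. In untrained sample 2 the scores of 1335 rows end at 2.52 and 1632 rows have a mean of 0 (within 1e-06), and 0 rows do so in the other samples. Depth is unknown, so no interval from counts is given.

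The number at the end of a cell's name gave its sample. Mean scores per gene, sample and gate class were fitted with limma 3.58.1 (R 4.3.3), two-sided. P-values were adjusted by Benjamini-Hochberg over every gene fitted, with 0.05 as the threshold. Spike-ins, and in gate fits Cd4, Cd8a and Cd8b1, were left out. Fits between gate classes had a term for each sample. The fit was run on simulated means with planted differences and no effect shared within a sample. Recovery and false calls of that run are not reported here. Partners were ranked by Pearson's r within samples, averaged over 5 samples (numpy 2.4.6, pandas 2.3.3, Python 3.11.15). Named were the 10 highest and 5 lowest r of each gene, the receptor chains, kinases and STATs of both pathways, and up to 4 other genes per list with the largest gate difference or extreme r; some genes this rule names are not reported here. Genes named by partial r beyond these, and pathway genes named for training, were chosen after their values were seen. Members and lists were chosen with earlier results of these data known. The alternatives were another gate, scaling by SD, subtraction of the cell mean, shares above 0, weighting by cells, no sample block, rank correlation, partial r, and leaving out samples, cells high in myeloid markers or cells low in T cell markers. Foxp3, Gzmb and Ifng were not analysed here.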

Additional observations from a re-analysis of the deposited data

Results flagged for a closer look

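The Ifngr1 difference between CD8-gated and CD4-gated cells was above 0 in every trained sample and below 0 in every untrained sample, with a mean of 0.248 in trained and -0.0997 in untrained samples. The difference of 0.348 was tested as the interaction of gate and training and did not pass (limma adjusted p = 0.758). Without 1 sample it ranged from 0.268 (without untrained sample 2) to 0.428 (without untrained sample 1). Trained sample 1 had only 17 CD8-gated and 16 CD4-gated cells. No sample stood apart from the other 4 in any difference between gate classes of Il2rb or Ifngr1 by Dixon's criterion for 5 values (a gap above 0.710 of the range); the nearest was trained sample 3 for Ifngr1 in CD4-gated cells minus cells above both gates, at 0.620.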

How the results depend on the processing

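The gate differences of Il2rb (0.136 to 0.239 without 1 sample) and Ifngr1 (0.0549 to 0.181), and the Ifngr1 interaction with training, kept their sign and stayed short of the threshold under every alternative run. Numbers of genes past the threshold moved far more. For the gate difference 5 became 53 after division by the SD, 10 after subtraction of the cell mean, 23 for shares above 0, 0 without cells high in myeloid markers, 30 with no replicate block and 0 to 7 without 1 sample (0 without trained sample 1, 2 without trained sample 2 or 3). No paired analysis between trained and untrained samples was possible because their numbers follow accession order. For CD8-gated minus ungated cells 198 became 129 after subtraction of the cell mean, 355 for shares above 0, 1075 with cells as weights, 0 among cells with a positive T cell marker mean and 49 to 329 without 1 sample (lowest without trained sample 3, highest without untrained sample 2). For CD4-gated cells 396 became 56 with gates at 0.25, 112, 849, 1499 and 0 under those same 4 settings, 595 without cells high in myeloid markers and 24 to 310 without 1 sample (lowest without trained sample 1). For cells above both gates 1205 became 520 with gates at 0.25, 556 after subtraction, 1936 for shares, 20 among T cell marker positive cells and 773 to 1157 without 1 sample (lowest without trained sample 3). For training 0 became 1 in CD8-gated cells with gates at 0.25, and without untrained sample 1 it became 3 in all cells, 8 in CD4-gated cells and 10 for the interaction.

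Il2rb in CD8-gated minus ungated cells was 0.299 with gates at 0.25 (adjusted p = 0.0769), 0.0897 among T cell marker positive cells (0.999) and 0.314 to 0.400 without 1 sample. Ifngr1 there passed with cells as weights, at 0.239 (0.00620), and was 0.204 to 0.356 without 1 sample. In CD4-gated minus ungated cells Il2rb passed for shares, at 21.4 percentage points, and with cells as weights, at 0.142, and was -0.166 among T cell marker positive cells. In cells above both gates Il2rb was 0.0591 with gates at 0.25, 0.0867 after subtraction of the cell mean and -0.131 among T cell marker positive cells, and Ifngr1 turned to 6.81 percentage points for shares and to 0.0194 with cells as weights. For training in all cells Il2rb was 0.0616 and Ifngr1 0.0254 without cells high in myeloid markers, Ifngr1 was 0.0402 among T cell marker positive cells, and Ifngr1 was -0.0578 to 0.0209 without 1 sample. In CD8-gated cells the Il2rb training difference was 0.141 with gates at 0.25, 0.217 after subtraction, 0.213 among T cell marker positive cells and 0.229 to 0.296 without 1 sample. In CD4-gated cells it was -0.0150 with cells as weights, -0.0285 without cells high in myeloid markers, -0.0363 among T cell marker positive cells and -0.0663 to 0.0622 without 1 sample. The r between Il2rb and Ifngr1 was 0.105 in gated cells with the gate mean removed, 0.0841 after subtraction and 0.0233 as a partial r. The causes were not tested. The depth of the samples is unknown, and 2 untrained samples limit every training comparison.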
